A study of Mus musculus with 12 samples.

Results

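Genes of serine synthesis, one-carbon metabolism and amino acid transport were followed, 10 in all, in primary mouse brain cultures that carry a mutation in *Myt1l*. The genes were chosen by name, for their place in the pathway: *Phgdh*, *Psat1* and *Psph* for serine synthesis, *Shmt1* and *Shmt2* for the exchange of serine and glycine, *Mthfd2*, *Mthfd1l* and *Aldh1l2* for the mitochondrial folate pathway, and the transporters *Slc7a11* and *Slc7a5*. Earlier results of these data were known when the 10 genes and the related lists were chosen. The shares of all genes set beside them below therefore describe and do not test. These 10 are among the 55397 genes of the count table, and all 10 were among the 18264 genes that passed the filter on low counts. The cultures were made from newborn (P0) pups, labelled cortex and C57BL/6J, and RNA was sequenced at day in vitro 11 (DIV11). The methods of the study name hippocampus or cortex as the source of such cultures, and C57BL/6N as the strain to which the founders were bred. The mutant genotype, labelled HET, was heterozygous (+/-) for a 7 bp frameshift deletion in exon 6 of *Myt1l*, made by electroporating CRISPR/Cas9 into zygotes, and 3 animals (505, 506 and 508) were sequenced. The comparison genotype, labelled WT (+/+), had 3 animals as well (510, 511 and 513). Every culture received serum in the medium and, 3 days after plating, 2 µM Ara-C, a nucleoside analogue that kills dividing cells.

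Serine is made from the glycolytic intermediate 3-phosphoglycerate by the enzymes PHGDH, PSAT1 and PSPH, and in brain this route is known mainly from astrocytes and radial glia, which hand serine to neurons. Serine hydroxymethyltransferases then move a carbon from serine to folate, and mitochondrial enzymes oxidise it to formate or carbon dioxide, which feeds purine and thymidylate synthesis, methylation and NADPH production. SLC7A5 exchanges large neutral amino acids across the plasma membrane and SLC7A11 exports glutamate for cystine, the precursor of glutathione. Several of these genes are known targets of ATF4, the transcription factor of the amino acid response.

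The values are read counts per gene from 12 libraries, 2 for each animal, whose sum was taken as 1 replicate. Summed depth was 40642699 to 43745258 counts in (+/-) animals and 43129302 to 52833161 counts in (+/+) animals. No source used here says what separates both libraries of an animal. For the 10 genes their shares of the total differed by a median of 6.19%, and by under 10% in 43 of 60 pairs. *Myt1l* itself had 89.0, 146 and 165 CPM in (+/-) cultures and 119, 147 and 109 CPM in (+/+) cultures. This does not check the labels, because the study found that the mutant transcript is not lost to nonsense-mediated decay. The labels give every animal as male, yet (+/+) animal 511 had 18805 counts of *Xist* and each of the other animals had 5 to 10. Markers of neurons, astrocytes and other cells, given at the end, show that the cultures were mixed, and in such bulk samples fewer cells of a type and less RNA per cell cannot be told apart.

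Promoter sequences from RefSeq (assembly GRCm38.p6, 250 bases before to 50 bases after the transcription start) were found for 8 of the 10 genes, in 9 windows, since *Psat1* has 2. *Aldh1l2* and *Slc7a5* had no entry. Each window was searched on both strands for the core of the C/EBP-ATF response element that ATF4 binds (TGATGNAA), the core of the antioxidant element that NRF2 binds (TGACNNNGC) and the core of the motif bound by the MYT1 family (AAAGTT). Of the 9 windows 3 are printed: *Slc7a11* for its matches to the ATF4 element, and *Phgdh* and *Mthfd2* as the members with a window that had the smallest unadjusted p-values between genotypes. Letters in capitals mark a match, on either strand.
Slc7a11 (chr3:50443564-50443863, minus strand): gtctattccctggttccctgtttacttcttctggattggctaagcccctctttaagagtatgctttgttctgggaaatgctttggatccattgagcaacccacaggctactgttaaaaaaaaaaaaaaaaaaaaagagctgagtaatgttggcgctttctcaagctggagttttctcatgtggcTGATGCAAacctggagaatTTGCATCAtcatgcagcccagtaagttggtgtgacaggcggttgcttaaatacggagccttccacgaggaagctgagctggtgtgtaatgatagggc
Phgdh (chr3:98339920-98340219, minus strand): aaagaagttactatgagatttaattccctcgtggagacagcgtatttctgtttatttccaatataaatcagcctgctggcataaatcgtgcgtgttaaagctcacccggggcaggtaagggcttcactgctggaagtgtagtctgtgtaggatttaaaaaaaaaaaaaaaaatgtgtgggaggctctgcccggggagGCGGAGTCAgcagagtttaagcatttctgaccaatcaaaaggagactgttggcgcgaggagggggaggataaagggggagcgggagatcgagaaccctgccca
Mthfd2 (chr6:83317555-83317854, minus strand): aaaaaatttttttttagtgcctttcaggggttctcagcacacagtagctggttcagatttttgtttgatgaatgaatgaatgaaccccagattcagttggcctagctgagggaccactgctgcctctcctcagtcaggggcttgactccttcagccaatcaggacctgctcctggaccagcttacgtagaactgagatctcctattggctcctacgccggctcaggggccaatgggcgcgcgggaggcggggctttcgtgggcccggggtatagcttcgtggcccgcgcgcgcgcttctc
The *Slc7a11* window held TGATGCAA at position -66 and the same 8 bases on the opposite strand at position -47, both counted from the transcription start at the leftmost base. It was the only one of the 9 windows with this element, which occurs in 3.97% of all 32851 promoter windows of equal length. The antioxidant core lay on the opposite strand at position -53 of the *Phgdh* window, as TGACTCCGC, and in the *Psph* window, so in 2 of 9 windows against 12.4% of all. AAAGTT was found in the *Shmt2* window only, and in 14.1% of all windows. The *Mthfd2* window held no match. Such matches describe letters in a short window and not binding.

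Levels between genes were compared per length, as CPM (counts relative to library sizes scaled by TMM) per kilobase of exon, over all 6 animals. *Psat1* was highest at 41.6 CPM per kb, with animals between 37.6 and 45.5. *Slc7a5* followed at 26.0 (20.5 to 32.5), and its animals did not overlap with those of *Psat1* or of *Phgdh* at 16.3 (12.3 to 19.4). *Phgdh* and *Shmt2*, at 13.5 (11.9 to 14.6), overlapped. *Psph* at 6.34 (5.91 to 6.98) and *Mthfd1l* at 5.50 (4.13 to 6.67) overlapped too, as did *Mthfd2* at 3.29 (2.02 to 4.83) with *Mthfd1l* and with *Aldh1l2* at 2.66 (1.59 to 4.08). *Shmt1* at 0.579 (0.482 to 0.683) and *Slc7a11* at 0.559 (0.309 to 1.27) were the lowest and overlapped each other. The cytosolic *Shmt1* rested on 80 to 138 counts an animal, and the other 9 genes on at least 175.

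The genotypes were compared to ask how the genes of these routes behave when 1 copy of *Myt1l* is mutated. Steps within the set lay on different sides: the serine synthesis genes and *Shmt2* had slightly higher means in (+/-) cultures, whereas *Mthfd2*, *Mthfd1l*, *Aldh1l2* and *Slc7a5* had lower ones. The animals of both genotypes overlapped for *Psph* and *Mthfd1l*. By edgeR's quasi-likelihood test with Benjamini-Hochberg adjustment over 18264 genes, 0 of the 10 genes were called higher and 0 lower at an adjusted p under 0.1, where 0% of all genes were called in either direction and the smallest adjusted p of any gene was 0.166. At an unadjusted p under 0.05, 1 of 10 was higher (*Phgdh*), against 13.2% of all genes, and 3 of 10 were lower (*Aldh1l2*, *Slc7a5* and *Mthfd2*), against 9.11% of all genes. Every (+/-) animal lay above every (+/+) animal for 3 of 10 genes (*Phgdh*, *Psat1* and *Shmt2*), against 15.5% of all genes, and below for 3 of 10 (*Mthfd2*, *Aldh1l2* and *Slc7a5*), against 13.5% of all genes. DESeq2 on the same animals called 0 of 10 higher, against 7.42% of all genes, and the same 3 genes lower, against 4.33% of all genes. limma voom called 0 of all genes. The median log2 fold change of the 10 genes was 0.09, beside 0.0031 over all genes tested.

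**Figure D1:**
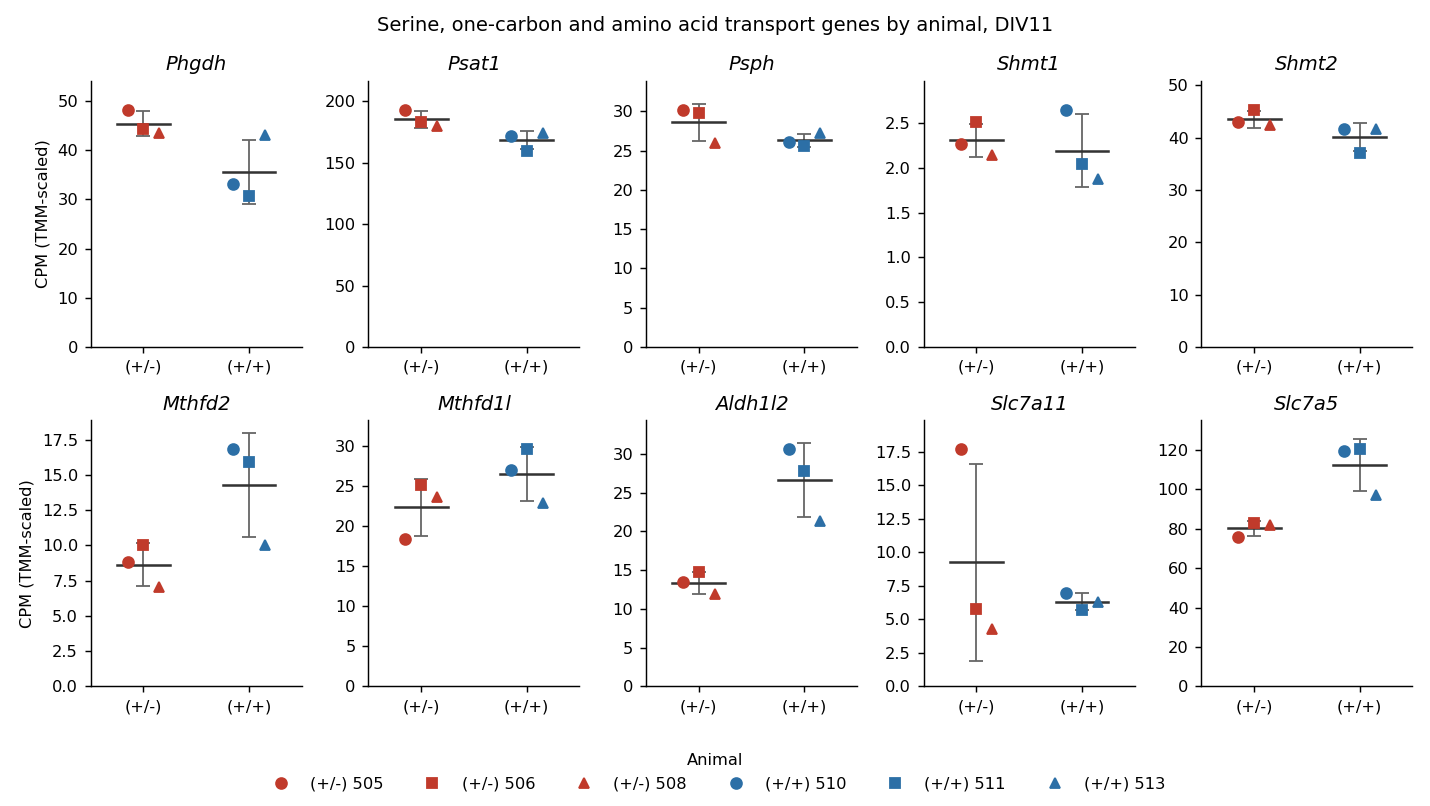
CPM (TMM-scaled, vertical axis from 0) of the 10 genes in each animal, with (+/-) animals in red at the left of each panel and (+/+) animals in blue at the right; lines are means and bars SD (n = 3). *Aldh1l2*, *Mthfd2* and *Slc7a5* are lower in all (+/-) animals, with animal 513 the lowest (+/+) point in each, and *Slc7a11* is high in animal 505 only.

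The first enzyme of serine synthesis had the largest difference of the 3. *Phgdh* (chr3:98313170-98339990), which encodes the dehydrogenase that opens the route, had 48.3, 44.3 and 43.5 CPM in the (+/-) animals 505, 506 and 508, against 33.1, 30.7 and 43.0 CPM in the (+/+) animals 510, 511 and 513. The genotypes did not overlap, but animal 513 came within 1 CPM of the lowest (+/-) animal while the other (+/+) animals lay well below. Means were 45.3 ± 2.55 CPM in (+/-) cultures and 35.6 ± 6.53 CPM in (+/+) cultures (SD, n = 3 each), giving a log2 fold change of 0.35 (SE 0.13) with an adjusted p of 0.20 by edgeR. Without animal 513 the log2 fold change was 0.49 and passed the threshold (edgeR adjusted p = 0.031). In that fit 2294 of 18638 genes tested were called higher.

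*Psat1* (chr19:15904678-15947337), the aminotransferase of the middle step, had 193, 183 and 180 CPM in (+/-) cultures and 172, 160 and 174 CPM in (+/+) cultures. These did not overlap, yet the difference was small, with a log2 fold change of 0.14 (SE 0.09, edgeR adjusted p = 0.35). *Psph* (chr5:129765558-129787449), the phosphatase that releases serine, had 30.2, 29.7 and 25.9 CPM in (+/-) cultures and 26.1, 25.6 and 27.2 CPM in (+/+) cultures. Here animal 508 lay among the (+/+) animals, and the log2 fold change was 0.12 (SE 0.09, edgeR adjusted p = 0.42). Of the exon bases of *Psph*, 452 are shared with *Cct6a* on the other strand, a chaperonin gene with 43187 counts against 7329 for *Psph*. No source used here says whether strand was used in counting. Added up, the 3 genes of serine synthesis gave 249 to 272 CPM in (+/-) cultures and 216 to 244 CPM in (+/+) cultures. The summed astrocyte markers, 14151 to 15743 CPM in (+/-) cultures and 10540 to 15353 CPM in (+/+) cultures, were also lowest in animals 510 and 511. *Gfap* was the largest part of this sum, with 2769 and 3233 CPM in animals 510 and 511 and 6156 CPM in animal 513. Other markers of the list, *Slc1a3*, *Sox9* and *Atp1b2*, were highest among (+/+) animals in 510. The part of astrocyte content in the *Phgdh* values was not tested.

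Both serine hydroxymethyltransferases, which turn serine into glycine and load the carbon onto folate, had small differences between genotypes. The mitochondrial *Shmt2* (chr10:127517123-127522444) had 42.9, 45.4 and 42.4 CPM in (+/-) cultures and 41.7, 37.1 and 41.6 CPM in (+/+) cultures. No (+/-) animal fell into the (+/+) range, but the gap was under 1 CPM and the log2 fold change was 0.12 (SE 0.09, edgeR adjusted p = 0.40). The cytosolic *Shmt1* (chr11:60788104-60811718) had 2.27, 2.51 and 2.14 CPM in (+/-) cultures and 2.65, 2.05 and 1.87 CPM in (+/+) cultures. Its genotypes overlapped fully, with a (+/+) animal at each end, and the log2 fold change of 0.07 (SE 0.20, edgeR adjusted p = 0.83) changed sign without animal 506 or 513. The 95% confidence interval of the estimate (normal, from the SE) for *Shmt1* reached from -0.31 to 0.45, so the spread between animals left room for a difference in either direction. *Shmt1* shares 184 exon bases with *Smcr8* on the other strand, which had 9703 counts against 604 for *Shmt1*.

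Of the mitochondrial folate enzymes, *Aldh1l2* and *Mthfd2* had the lowest ratios to (+/+) cultures among the 10 genes, and *Mthfd1l* overlapped between genotypes. *Aldh1l2* (chr10:83487450-83534140), the mitochondrial 10-formyltetrahydrofolate dehydrogenase that releases the carbon as carbon dioxide and makes NADPH, had 13.4, 14.8 and 11.9 CPM in (+/-) cultures and 30.6, 27.8 and 21.3 CPM in (+/+) cultures. The highest (+/-) animal lay well below the lowest (+/+) animal. Means were 13.4 ± 1.43 CPM in (+/-) cultures and 26.6 ± 4.78 CPM in (+/+) cultures (SD, n = 3 each), giving a ratio of 0.503 and a log2 fold change of -0.99 (SE 0.15). By unadjusted p (2.3e-04) it ranked 8 of all 18264 genes tested, with an adjusted p of 0.17 by edgeR and 2.6e-05 by DESeq2.

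Part of *Aldh1l2*, 1056 of its 7503 exon bases, is shared with *D10Wsu102e* on the other strand, a gene with 5247 counts against 5464 for *Aldh1l2*. That neighbour had a log2 fold change of 0.18 (edgeR adjusted p = 0.46), on the other side of 0.

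*Mthfd2* (chr6:83305691-83325908), the dehydrogenase and cyclohydrolase of the mitochondrial matrix, had 8.86, 10.04 and 7.03 CPM in (+/-) cultures and 16.8, 16.0 and 10.04 CPM in (+/+) cultures. Animals 506 and 513 were equal to 2 decimals, so the genotypes only just did not overlap, and with CPM by total counts they did, and animals 510 and 511 stood apart above them. Means were 8.64 ± 1.52 CPM in (+/-) cultures and 14.3 ± 3.70 CPM in (+/+) cultures (SD, n = 3 each), giving a ratio of 0.605 and a log2 fold change of -0.73 (SE 0.22), with an adjusted p of 0.17 by edgeR and 0.034 by DESeq2.

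*Mthfd1l* (chr10:3973118-4167081), the formate-releasing synthetase at the end of the mitochondrial route, had 18.3, 25.1 and 23.6 CPM in (+/-) cultures and 26.9, 29.6 and 22.9 CPM in (+/+) cultures. Animal 513 lay between the (+/-) animals, and the log2 fold change of -0.25 (SE 0.15) had an adjusted p of 0.32 by edgeR. The 3 mitochondrial folate genes together gave 40.6 to 50.0 CPM in (+/-) cultures and 54.2 to 74.4 CPM in (+/+) cultures. Neuron markers summed to 2592 CPM in animal 505, 4473 in 506 and 4941 in 508, against 4997 to 5811 CPM in (+/+) cultures. *Mthfd1l* was lowest in animal 505, as the neuron markers were, and *Aldh1l2* and *Mthfd2* were lowest in animal 508. The part of neuron content in these values was not tested.

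The transporters differed from each other. *Slc7a5* (chr8:121881150-121907694), the light chain of the LAT1 exchanger for large neutral amino acids, had 75.9, 82.8 and 81.9 CPM in (+/-) cultures and 119, 121 and 97.1 CPM in (+/+) cultures. All (+/-) animals lay below all (+/+) animals, and animal 513 was again the nearest. The lowest was animal 505, which also had the lowest neuron markers. Means were 80.2 ± 3.77 CPM in (+/-) cultures and 112 ± 13.3 CPM in (+/+) cultures (SD, n = 3 each), giving a log2 fold change of -0.49 (SE 0.11) with an adjusted p of 0.17 by edgeR and 0.0084 by DESeq2.

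*Slc7a11* (chr3:49892526-50443614), the light chain of the cystine-glutamate exchanger, had 17.7, 5.77 and 4.30 CPM in (+/-) cultures and 6.94, 5.68 and 6.30 CPM in (+/+) cultures. Animal 505 stood far above the rest, while animal 508 was the lowest of the 6. The log2 fold change of 0.56 (SE 0.48, edgeR adjusted p = 0.47) rested on animal 505 and was -0.32 without it. In the same animal the 8 markers of meningeal fibroblasts summed to 1375 CPM, against 343 to 430 CPM in the other (+/-) animals and 169 to 710 CPM in (+/+) animals. Their part in the *Slc7a11* value was not tested. For each of the 10 genes singly, an exact two-sided permutation test over the 20 splits of 6 animals gave p = 0.1 at best, the smallest value that 3 animals against 3 allow, and reached it for the 6 genes whose genotypes did not overlap. With CPM by total counts in place of TMM, *Mthfd2* overlapped (exact permutation p = 0.2) and 5 genes remained at p = 0.1.

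**Figure D2:**
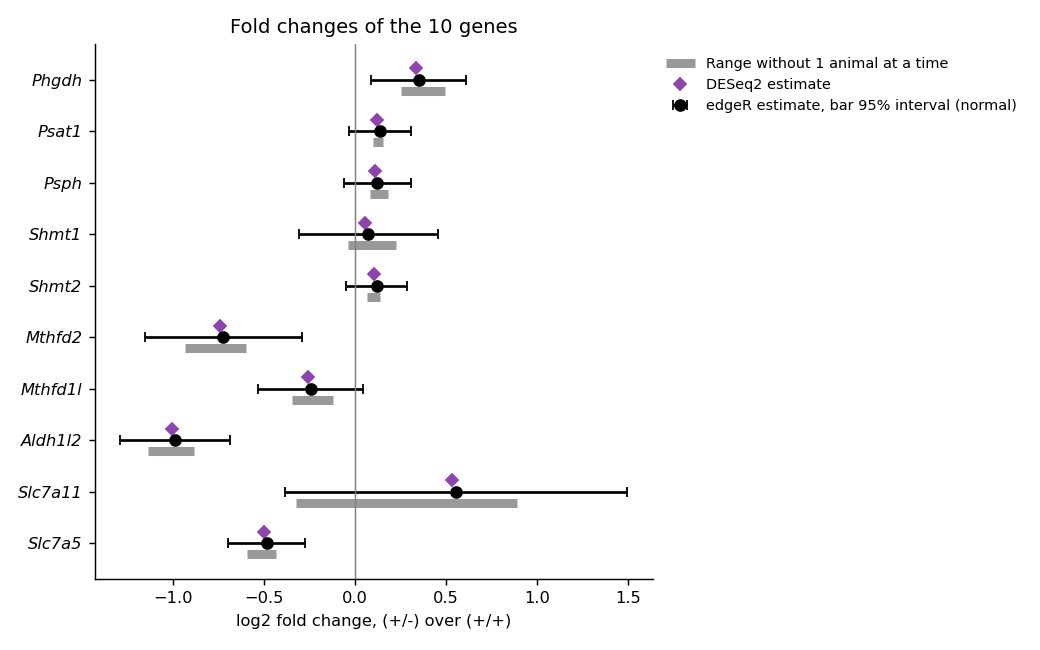
Log2 fold change of each gene, (+/-) over (+/+), on the horizontal axis: edgeR estimate (black, bar the 95% confidence interval from its SE), DESeq2 estimate (purple diamond) and range of edgeR estimates when 1 animal is left out (grey). *Aldh1l2*, at -0.99, stays between -1.14 and -0.89 without any 1 animal, while the grey ranges of *Slc7a11* and *Shmt1* cross 0.

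Animal 513 was the (+/+) animal nearest to the (+/-) cultures in *Phgdh*, *Psat1*, *Mthfd2*, *Aldh1l2* and *Slc7a5*, 5 of the 6 genes whose genotypes did not overlap. Without it, edgeR called 1 of the 10 genes higher (*Phgdh*) and 3 lower (*Mthfd2*, *Aldh1l2* and *Slc7a5*). Of all 18638 genes tested in that fit, 2294 were called higher and 1109 lower, so the 1 of 10 higher is below the share of all genes. Adjusted p-values were then 0.031 for *Phgdh*, 0.025 for *Mthfd2*, 0.013 for *Aldh1l2* and 0.024 for *Slc7a5*. Leaving out any other single animal gave 0 calls among the 10 genes.

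Each mitochondrial enzyme was also set against its cytosolic partner within an animal, and *Slc7a5* against *Slc3a2*, the heavy chain that it pairs with in the membrane. These log2 ratios of counts do not depend on library scaling. *Aldh1l2* over *Aldh1l1*, the cytosolic enzyme and a known astrocyte gene, was -3.64, -3.35 and -3.28 in (+/-) cultures and -2.15, -2.18 and -2.78 in (+/+) cultures. The genotypes did not overlap, and the mean difference was -1.05 (exact two-sided permutation p = 0.1, adjusted over 5 ratios 0.25). *Aldh1l1* itself had 168, 151 and 116 CPM in (+/-) cultures and 136, 126 and 147 CPM in (+/+) cultures, which overlapped.

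*Slc7a5* over *Slc3a2* was -2.38, -2.16 and -1.98 in (+/-) cultures and -1.74, -1.61 and -1.93 in (+/+) cultures, a mean difference of -0.41 (exact permutation p = 0.1, adjusted 0.25). The genotypes were separated by a narrow gap between animals 508 and 513. *Mthfd2* over *Mthfd1*, the trifunctional cytosolic enzyme, was -3.08, -2.74 and -3.28 in (+/-) cultures and -1.83, -1.83 and -2.75 in (+/+) cultures, a mean difference of -0.90 (exact permutation p = 0.2, adjusted 0.33). Animals 506 and 513 crossed here. *Mthfd1l* over *Mthfd1* differed by -0.44 (p = 0.3, exact permutation test) and *Shmt2* over *Shmt1* by 0.03 (p = 0.9, exact permutation test), and both overlapped.

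**Figure D3:**
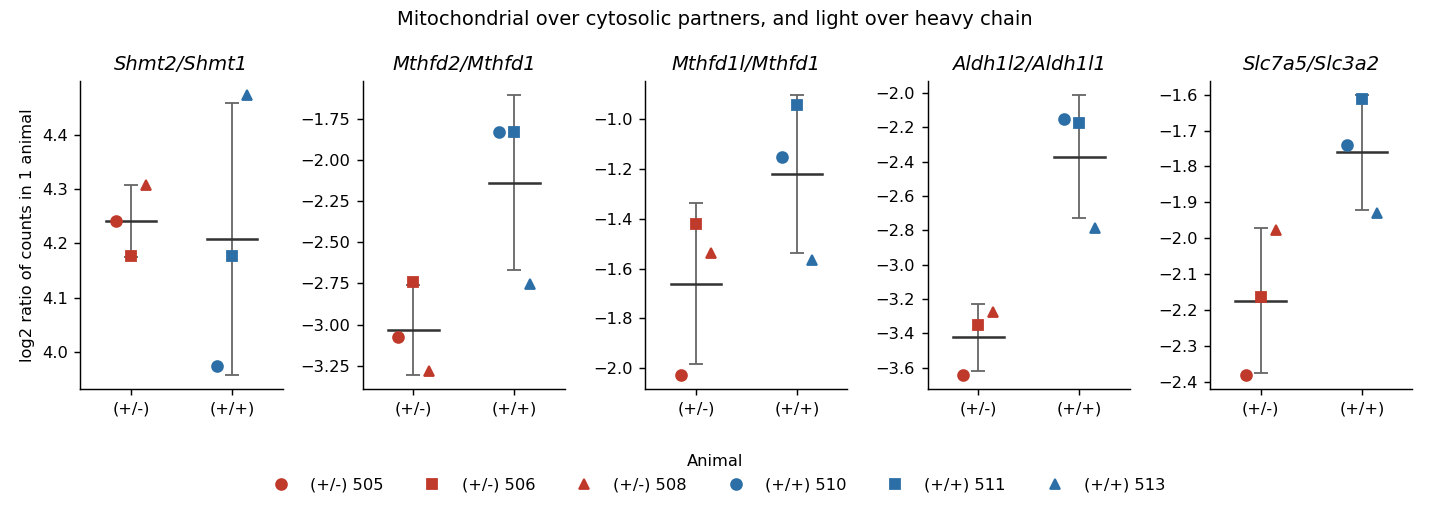
Log2 ratio of counts within each animal (vertical axis, own scale per panel), (+/-) in red at the left and (+/+) in blue at the right; lines are means and bars SD (n = 3). *Aldh1l2* over *Aldh1l1* differs by -1.05 and *Slc7a5* over *Slc3a2* by -0.41 without overlap, and animal 513 lies nearest to the (+/-) animals in both.

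Outside the 10 genes, 139 gene entries of related lists were in the count table, and in all of these lists edgeR called 0 genes in either direction. The counts that follow stand beside the shares of all genes tested: 50.4% had a positive log2 fold change, 13.2% were higher and 9.11% lower at an unadjusted p under 0.05, and 15.5% lay wholly above and 13.5% wholly below the (+/+) animals. Of the other folate enzymes, 12 of 14 had positive log2 fold changes (median 0.16), 2 were higher at an unadjusted p under 0.05 and 0 lower, and 4 lay wholly above. The 2 of 14 is a share near that of all genes. *Ggh*, the lysosomal enzyme that trims folate tails, had 24.2, 22.7 and 19.9 CPM in (+/-) cultures and 17.1, 16.1 and 18.2 CPM in (+/+) cultures (log2 fold change 0.38, SE 0.11), with adjusted p-values of 0.17 by edgeR and 0.065 by DESeq2. *Mtr*, methionine synthase, had a log2 fold change of 0.50 (SE 0.18) and *Tyms*, thymidylate synthase, one of 0.58 (SE 0.28). *Mthfd1* had a log2 fold change of 0.19 (SE 0.10) and *Mthfd2l*, the paralogue of *Mthfd2*, one of 0.16 (SE 0.15), neither on the side of *Mthfd2*.

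Among 8 carriers of folate and serine, 3 were higher and 1 lower at an unadjusted p under 0.05. *Folr1*, a folate receptor, had 64.2, 45.9 and 51.1 CPM in (+/-) cultures and 30.2, 23.3 and 26.6 CPM in (+/+) cultures, a log2 fold change of 1.01 (SE 0.15) with adjusted p-values of 0.17 by edgeR and 1.2e-05 by DESeq2. It is also 1 of 8 choroid plexus markers, which with *Folr1* itself summed to 392 to 1541 CPM in (+/-) cultures and 86.4 to 270 CPM in (+/+) cultures. The largest part of this sum was *Ttr*, with 303 to 1302 CPM in (+/-) cultures and 47.1 to 205 CPM in (+/+) cultures. Of the 7 markers tested, 6 had positive log2 fold changes, and *Kl* had one of -0.33. The part of choroid plexus content in the *Folr1* values was not tested. *Slc46a1*, the proton-coupled folate transporter, had a log2 fold change of 0.53 (SE 0.21), the low *Folr2* one of 1.15 (SE 0.44) and the sideroflexin *Sfxn3* one of -0.28 (SE 0.09).

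Of 8 tested entries for glycine cleavage and glycine handling, 1 was higher and 2 lower at an unadjusted p under 0.05. Both lower entries are *Gcat*, the mitochondrial ligase that makes glycine from threonine breakdown. They carry the same symbol and nearly the same counts, had log2 fold changes of -0.53 and -0.55, and are uncertain as separate genes. *Sardh*, sarcosine dehydrogenase, had a log2 fold change of 0.38 (SE 0.14), *Gldc*, the decarboxylase of the glycine cleavage system, one of 0.24 (SE 0.20) and its lipoamide partner *Dld* one of -0.11 (SE 0.08). In the list of serine use and the methionine cycle, 0 of 12 tested genes had an unadjusted p under 0.05 in either direction, and the median was 0.03. Its smallest p-values belonged to *Sptlc1* (0.27, SE 0.12), *Sdsl* (0.41, SE 0.18), *Ahcyl1* (-0.16, SE 0.10) and *Mat2a* (0.24, SE 0.15), all log2 fold changes.

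Relatives of the Slc7 transporters were split, with 3 of 10 tested genes higher and 2 lower at an unadjusted p under 0.05. *Slc7a3*, a cationic amino acid transporter, had 2.53, 2.99 and 3.17 CPM in (+/-) cultures and 5.84, 6.57 and 4.78 CPM in (+/+) cultures, a log2 fold change of -0.98 (SE 0.18) with adjusted p-values of 0.17 by edgeR and 4.8e-04 by DESeq2. *Slc7a1*, of the same subfamily, had a log2 fold change of -0.41 (SE 0.15). *Slc7a2*, the third cationic transporter, lay on the other side with 275, 217 and 227 CPM in (+/-) cultures and 139, 134 and 210 CPM in (+/+) cultures (log2 fold change 0.58, SE 0.19), as did *Slc7a7* (0.89, SE 0.23). *Slc3a2*, the heavy chain of both members, had 395, 371 and 323 CPM in (+/-) cultures and 399, 369 and 370 CPM in (+/+) cultures, a log2 fold change of -0.06 (SE 0.11).

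Of 20 other amino acid transporters, 4 were higher and 0 lower at an unadjusted p under 0.05. All 4 belong to the SLC38 family of neutral amino acid carriers: *Slc38a2* (log2 fold change 0.48, SE 0.13), *Slc38a3* (0.67, SE 0.20), *Slc38a1* (0.45, SE 0.15) and *Slc38a6* (0.46, SE 0.19). The family as a whole was not higher. Its other genes in the list had log2 fold changes of 0.02 (*Slc38a4*), -0.37 (*Slc38a5*), -0.23 (*Slc38a7*), 0.004 (*Slc38a9*) and 0.04 (*Slc38a10*). DESeq2 called 3 of the 20 higher, against 7.42% of all genes, and 0 lower, against 4.33% of all genes. The 3 were *Slc38a2*, *Slc38a3* and *Slc38a1*, at DESeq2 adjusted p-values of 0.038, 0.032 and 0.068. *Slc1a5*, a glutamine exchanger, was 1 of 11 with a negative log2 fold change, at -0.76 (SE 0.35).

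ATF4 and its targets outside the 10 genes had lower values more often than higher ones. Of 25 tested entries, 18 were negative, 11 were lower (9.11% of all genes) and 1 higher (13.2% of all genes) at an unadjusted p under 0.05, 8 lay wholly below the (+/+) animals (13.5% of all genes), and the median log2 fold change was -0.42. *Atf4* had 79.8, 86.8 and 84.3 CPM in (+/-) cultures and 139, 116 and 99.0 CPM in (+/+) cultures (log2 fold change -0.50, SE 0.13), with adjusted p-values of 0.17 by edgeR and 0.022 by DESeq2. By p-value *Stc2* (log2 fold change -0.64, SE 0.17), *Ddit3* (listed under 2 entries, with -0.94 in both) and *Ddit4* (-0.85, SE 0.24) followed. Both *Ddit3* entries are in every lower count of this list and are uncertain as separate genes. On the other side, 7 of 25 entries were positive, and the 1 higher entry was *Gpt2* (0.29, SE 0.12). In *Atf4* too, animal 513 was the lowest (+/+) animal. By DESeq2, 8 entries of this list were called lower (4.33% of all genes) and 0 higher (7.42% of all genes).

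Cytosolic aminoacyl-tRNA synthetases, which charge tRNAs and of which many are ATF4 targets, had negative log2 fold changes for 18 of 20 genes, with a median of -0.18. At an unadjusted p under 0.05, 4 were lower and 0 higher: *Yars* (-0.42, SE 0.15), *Aars* (-0.38, SE 0.13), *Sars* (-0.29, SE 0.11) and *Vars* (-0.25, SE 0.10). Of the 20, 10 lay wholly below the (+/+) animals (13.5% of all genes) and 2 wholly above (15.5% of all genes). DESeq2 called 2 of the 20 lower (4.33% of all genes) and 0 higher (7.42% of all genes). Glutathione genes and NRF2 targets had a median of 0.04, with 1 of 12 tested genes lower (*Chac1*, -0.44, SE 0.14) and 0 higher at an unadjusted p under 0.05. *Chac1* is also in the ATF4 list and was counted among its lower entries. *Gclc*, the rate-limiting enzyme of glutathione synthesis, had a log2 fold change of 0.27 (SE 0.13), *Nqo1* one of 0.31 (SE 0.17), *Srxn1* one of -0.17 (SE 0.11) and *Nfe2l2*, which encodes NRF2, one of 0.15 (SE 0.12).

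**Figure D4:**
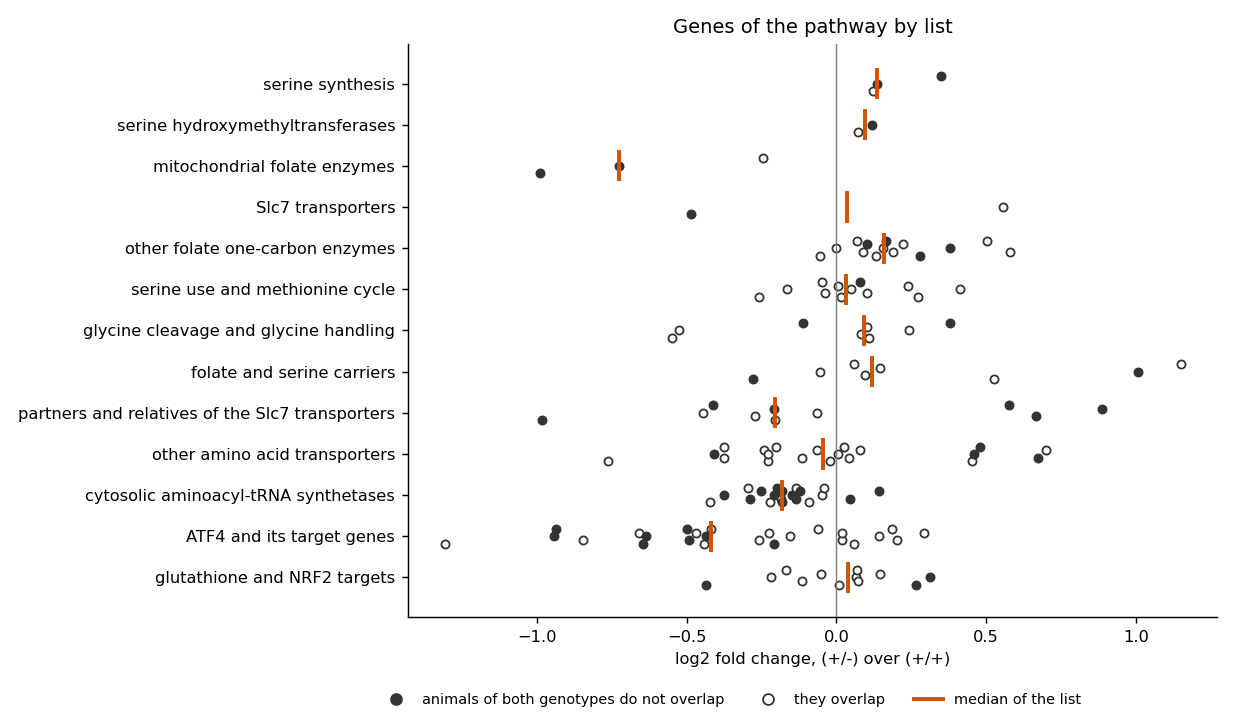
Log2 fold change, (+/-) over (+/+), of every tested gene (points, horizontal axis) in the lists of the 10 genes (upper 4 rows) and of related genes; filled points are genes whose animals do not overlap between genotypes, and orange bars are list medians. The mitochondrial folate genes (median -0.73) and the ATF4 list (median -0.42) lie to the left, and the other folate enzymes (median 0.16) to the right.

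Across the 6 animals, log2 CPM of *Aldh1l2* went with that of *Slc7a5* (Pearson r = 0.97) and *Mthfd2* (r = 0.95), and *Phgdh* ran opposite to *Slc7a5* (r = -0.96). *Slc7a11* did not go with *Aldh1l2* (r = -0.15). These describe 6 animals, 3 of each genotype, with all genes of an animal read from the same libraries. A difference between genotypes alone can give a high r, and no test was run. By the mean of all 10 standardised genes, the most similar of 12476 other genes were *Sys1*, *Ubxn1*, *Rpl23*, *Map3k8*, *Dcxr*, *Pxdc1*, *Yif1a*, *Rpl10*, *Ddah2* and *Id1* (r = 0.97 to 0.99 over 6 animals), a mean over genes that lay on opposite sides. For the mean of the 3 mitochondrial folate genes alone, a pattern added after the values were seen, they were headed by *Fgf11*, *Gtpbp2* and *Mars1*, the synthetase for methionine, and 385 genes had r above 0.95.

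Of the cell type markers, edgeR called 0 in either direction. All 12 neuron markers had negative log2 fold changes (median -0.46), and 5 of 12 lay wholly below the (+/+) animals, against 13.5% of all genes. Astrocyte markers were positive for 8 of 12, beside 50.4% of all genes tested, with a median of 0.10, and radial glia and progenitor markers for 7 of 9 tested, summing to 5670 to 6500 CPM in (+/-) cultures and 3827 to 5688 CPM in (+/+) cultures. Ependymal and motile cilia markers were positive for 8 of 8 (928 to 1088 CPM in (+/-) cultures, 510 to 749 CPM in (+/+) cultures), microglia markers for 10 of 10 (144 to 273 CPM in (+/-) cultures, 102 to 136 CPM in (+/+) cultures) and proliferation genes for 9 of 10 (119 to 146 CPM in (+/-) cultures, 88.8 to 105 CPM in (+/+) cultures). Oligodendrocyte lineage markers summed to 105 to 129 CPM in (+/-) cultures and 84.8 to 108 CPM in (+/+) cultures, with *Sox10* and *Mog* under 1 CPM everywhere. Endothelial markers summed to 26.0 to 59.5 CPM in (+/-) cultures and 16.1 to 24.8 CPM in (+/+) cultures, with *Cldn5*, *Pecam1* and *Tek* under 1 CPM everywhere. The part of cell composition in the values of the 10 genes was not tested.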

How the data were processed

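RNA of primary mouse cultures at DIV11 was analysed from 6 animals, 3 *Myt1l* (+/-) and 3 (+/+), with 2 libraries each. Genotype, animal and library number came from the labels. Raw counts were deposited by the authors for every gene and library, made from 100 bp paired-end reads of strand-marked libraries mapped with STAR to mm10. No source used here names the counting tool. They also deposited normalised counts and a table of DESeq2 fold changes and p-values, and neither was used here.

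An animal's counts were the sum of its libraries. Genotypes were compared with edgeR 4.0.16 in R 4.3.3, using filterByExpr by genotype, TMM scaling, the quasi-likelihood test, Benjamini-Hochberg adjustment over 18264 genes and a call at an adjusted p under 0.1. Single genes and ratios were compared by exact permutation tests. The procedure was tested on simulated data. Replicates are separate animals, and p-values measure the spread between them. No covariate was used.

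DESeq2 1.42.0, limma 3.58.1 (voom), other size factors, filters and thresholds, single libraries and each animal left out were tried as alternatives. The 10 genes and the gene lists were chosen with earlier results of these data known. Named were the 10 genes, up to 4 genes with the smallest p of each related list, the ratio partners, *Myt1l*, *Atf4*, *Nfe2l2* and the 10 genes most like the mean of the members. A gene that this rule names is not reported here. *Mthfd2l*, *Gldc*, *Slc1a5*, *Gpt2*, overlapping neighbours, *Xist* and markers under 1 CPM were named after their values were seen. So were *Gfap*, *Slc1a3*, *Sox9*, *Atp1b2*, *Ttr*, *Kl* and the SLC38 genes outside the 4 with the smallest p. Gene positions are those of the deposited table (mm10). Exon overlaps came from GENCODE vM21 and promoters from RefSeq on GRCm38.p6.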

Additional observations from a re-analysis of the deposited data

How the results depend on the processing

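The 0 calls of edgeR depended on the processing. Without the low-count filter, 1021 of 32322 genes tested were called higher and 454 lower. Of the 10 genes, 0 were then called higher and 3 lower (*Mthfd2*, *Aldh1l2* and *Slc7a5*). DESeq2 called 1324 (7.42%) higher and 772 (4.33%) lower of 17844 genes, with the same 3 lower. With limma voom on 12 libraries and animal as a random effect, the fit with the library number as a replicate block called 1868 higher and 1729 lower, and the fit without the block 2050 and 1918. Both tested 16588 genes, and both called 1 of the 10 genes higher (*Phgdh*) and the same 3 lower. The 1 of 10 higher is below the share of all genes tested in these fits. The animals of both genotypes share no number, so library numbers pair no animals. When each animal was left out in turn, edgeR called 0 to 2294 genes higher and 0 to 1109 lower, and 0 to 1 of the 10 genes higher and 0 to 3 lower, with every such call from leaving out (+/+) animal 513. Between 18530 and 18656 genes were tested in these fits. Other size factors, a mean CPM of at least 1, either library alone, limma voom on 6 animals and an adjusted p under 0.05 left 0 calls. The cause of these differences was not tested.

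Of the 10 genes, 8 kept their direction under all 15 alternatives. *Shmt1* turned to -0.10 on the log2 scale with library 1 alone, and ranged from -0.041 (without animal 513) to 0.22 when 1 animal was left out, with -0.0062 without animal 506. *Slc7a11* ranged from -0.32 (without animal 505) to 0.89. The log2 difference in the ratio of *Shmt2* to *Shmt1* ranged from -0.084 (without animal 510) to 0.17 (without animal 513).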
